A study of Mus musculus with 6 samples.

Results

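Interferon-stimulated genes other than the OAS family were examined in mouse bone marrow stromal/stem cells with and without Nrf2. The 33 genes were taken by symbol from the deposited gene table, which lists 55401 genes, and all 33 were found. The table also holds the rest of the transcriptome, of which 13184 genes had enough reads to test. The question asked of the design was how the level of each gene differed between Nrf2 knockout cells and WT cells.

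There were 3 libraries of Nrf2 knockout cells and 3 libraries of WT cells, all from mouse bone marrow stromal/stem cells grown in DMEM with 10% fetal bovine serum. Nrf2 is the protein encoded by Nfe2l2, a transcription factor that switches on antioxidant and detoxifying genes. The sources used here give neither the kind of knockout allele nor the strain or age of the mice. Nothing in the labels tells whether replicates came from separate animals or cultures, and the knockout columns share a number of unstated meaning, so they may all derive from 1 source. Each p-value thus reflects the spread among these 6 libraries only, some of which may be technical. The knockout libraries held 20544347, 21235480 and 20069243 counts, and the WT libraries held 19163730, 18381114 and 21323839 counts. A count of 3 corresponded to between 0.141 and 0.163 CPM (counts per 1000000 counts of the library) in these libraries.

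Nfe2l2 itself had 118, 149 and 118 counts in knockout libraries 1, 2 and 3, and 3591, 3082 and 3628 counts in WT libraries 1, 2 and 3. The knockout over WT difference was, on the log2 scale, -4.77 (SE 0.14, edgeR adjusted p = 2.2e-05), in the direction of the labels. The labelled stromal identity was weak in the knockout libraries. The summed level of 18 stromal markers was 322, 381 and 354 CPM in knockout libraries, and 6436, 18659 and 27864 CPM in WT libraries. Of the 17 stromal markers tested, all 17 were lower in knockout, against 18.7% of all tested genes. Thy1 and Dcn had 0 knockout libraries over the read filter of the test and Pdgfra had 1, so their passing it rested on the WT libraries. The 18 macrophage markers summed to 29220, 30485 and 28216 CPM in knockout libraries, against 33555, 26905 and 23510 CPM in WT libraries, so macrophage RNA was abundant in all 6 libraries. In bulk RNA, more cells of a type and more RNA per cell cannot be told apart.

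Interferons are secreted proteins that cells release on sensing viral nucleic acid. Type I interferon binds the receptor chains IFNAR1 and IFNAR2, whose kinases TYK2 and JAK1 activate the complex ISGF3. This complex, which contains STAT2 and IRF9, binds the interferon-stimulated response element (ISRE) and switches on the genes described here. Their products sense viral RNA and DNA, block translation of viral RNA, trap virions at membranes or modify other proteins. Macrophages are known to hold a low constant level of this program even without infection.

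Most of the 33 genes were higher in Nrf2 knockout cells. Of the 31 that had enough reads to test, 22 rose in knockout and 0 fell by edgeR's quasi-likelihood test at an adjusted p under 0.05, and 9 did not pass. At an unadjusted p under 0.05 edgeR gave 23 higher and 0 lower, and DESeq2 and limma also called 0 lower. Among all 13184 genes tested, 14.1% were called higher and 18.7% lower. The median log2 fold change of the 31 was 0.76, against -0.01 over all genes tested, and 30 of the 31 had a positive value. In 24 of the 31 every knockout library stood above every WT library on the CPM scale, a pattern shown by 24.9% of all tested genes. In 0 of the 31 did every knockout library stand below every WT library, as 25.9% of all tested genes did. Among those that rose, the largest fold changes were in Ifi27l2a, Ifitm6, Rtp4, Mx1, Irf7, Rsad2 and Cmpk2, from 9.54-fold in Ifi27l2a to 3.08-fold in Cmpk2. Ifi44 and Mx2 had too few reads to test. Ifit1, Ifit3, Mx1 and Ifitm6 passed the read filter without all 3 WT libraries over it, and among the other 27 tested genes 20 rose, with a median of 0.76.

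**Figure D1:**
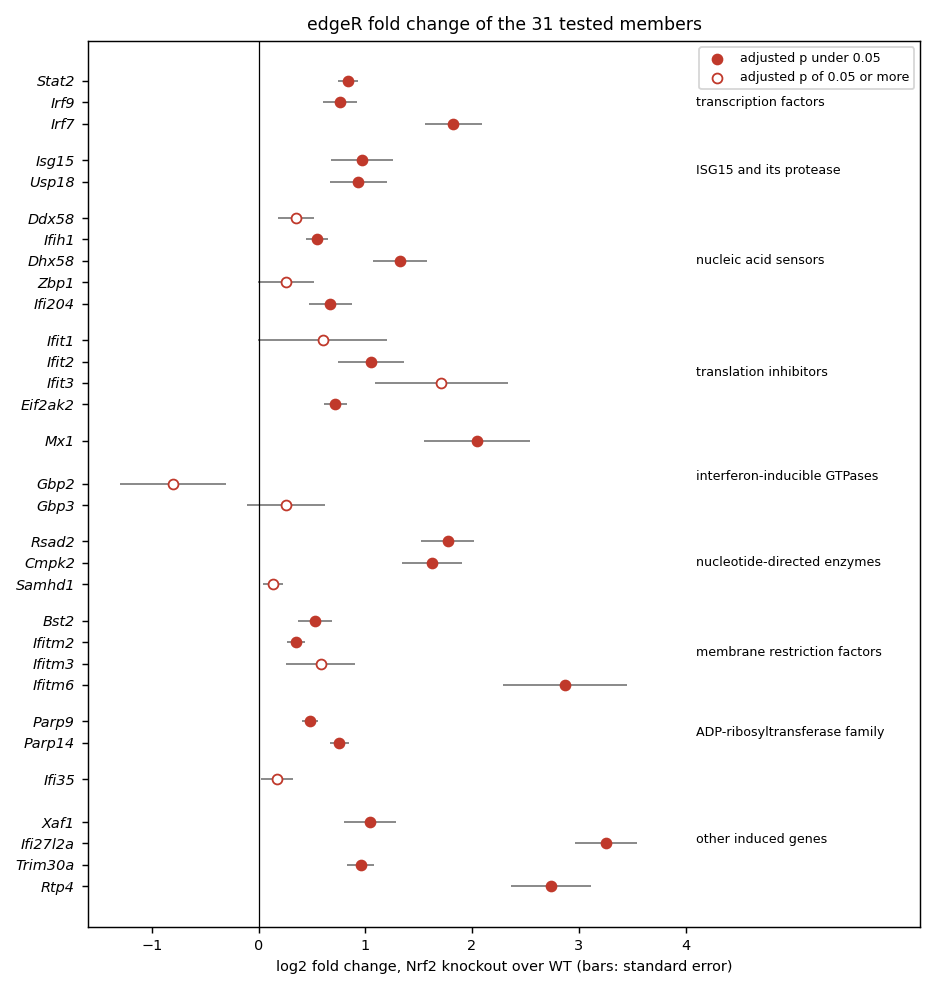
Log2 fold changes of the 31 tested interferon-stimulated genes, Nrf2 knockout over WT, with bars of 1 standard error. Filled points mark the 22 genes called higher by edgeR and open points the 9 that did not pass. Ifi27l2a stands highest at 3.25 and Gbp2 is the only point below 0, at -0.80.

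The size of these changes depended on what the libraries were scaled to. Scaling to the summed macrophage markers left 15 of the 31 genes higher, against 8.3% of all tested genes, and ended the calls of Isg15, Usp18, Ifih1, Ifit2, Eif2ak2, Ifitm2 and Parp9. Lyz2, a lysozyme gene, made up 42.6%, 43.1% and 41.4% of that sum in knockout libraries and 50.2%, 55.3% and 60.7% in WT libraries. Scaling to the macrophage markers without Lyz2, chosen after seeing the data, left 6 of the 31 higher, against 1.8% of all tested genes, and a member median of 0.32 against -0.50 over all genes. Scaling to the geometric mean of the macrophage markers, also chosen after seeing the data, left 8 higher, against 2.62% of all genes. The 6 genes higher under every alternative that tested them were Irf7, Dhx58, Rsad2, Cmpk2, Ifi27l2a and Rtp4. Leaving out 1 library at a time gave from 14 genes higher (without knockout library 2) to 25 (without WT library 1). Of all tested genes, 7.65% and 23.1% were higher in those fits. In the other omissions that share lay between 6.37% and 11.4%, against 14.1% with all 6 libraries.

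**Figure D2:**
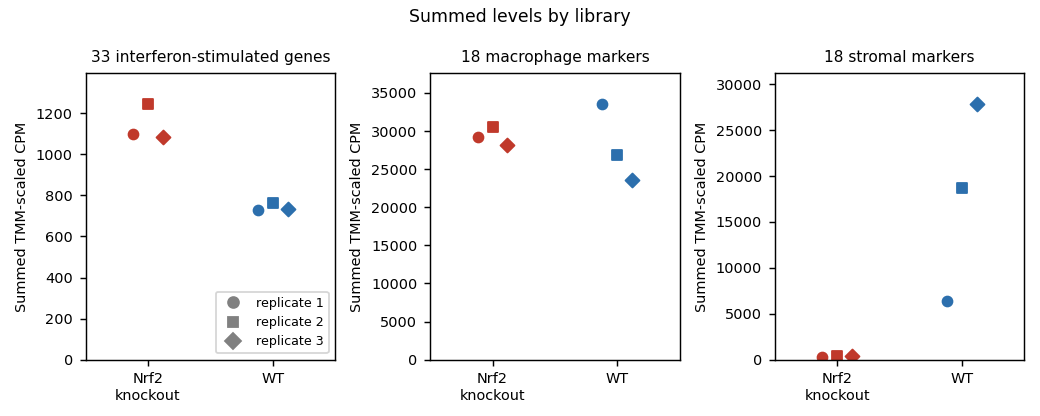
Summed CPM of the 33 interferon-stimulated genes, 18 macrophage markers and 18 stromal markers in each library, knockout libraries left of WT libraries. The interferon-stimulated genes sum to between 1086 and 1245 CPM in knockout libraries and between 731 and 761 CPM in WT libraries, while the stromal sums differ far more.

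The summed level of the 33 genes was 1143 ± 88.7 CPM in knockout libraries and 742 ± 16.9 CPM in WT libraries (SD, n = 3 each). This sum was 3.76%, 4.08% and 3.85% of the macrophage marker sum in the knockout libraries. In the WT libraries it was 2.18%, 2.83% and 3.12%, below all knockout libraries. That separation depended on Lyz2: as a share of the macrophage markers without Lyz2, the sum was 6.54%, 7.18% and 6.57% in knockout libraries and 4.38%, 6.33% and 7.92% in WT libraries, so the genotypes overlapped and WT library 3 was the highest. On the FPKM scale, a count divided by gene length and library total, the most abundant members were genes of membrane proteins. Ifitm2 averaged 264 ± 12.3 FPKM in knockout and 215 ± 27.7 FPKM in WT, and Ifitm3 averaged 224 ± 29.9 FPKM in knockout and 158 ± 76.5 FPKM in WT (SD, n = 3 each). Next in level was Bst2, at 130.3 ± 11.6 FPKM in knockout and 92.7 ± 14.5 FPKM in WT. Ifi27l2a stood at rank 4 of the members in knockout with 92.7 ± 23.1 FPKM, and at rank 6 in WT with 9.98 ± 2.98 FPKM. The lowest members were Ifi44, Mx2 and Mx1, with Mx1 at 0.66 ± 0.149 FPKM in knockout and 0.167 ± 0.105 FPKM in WT.

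**Figure D3:**
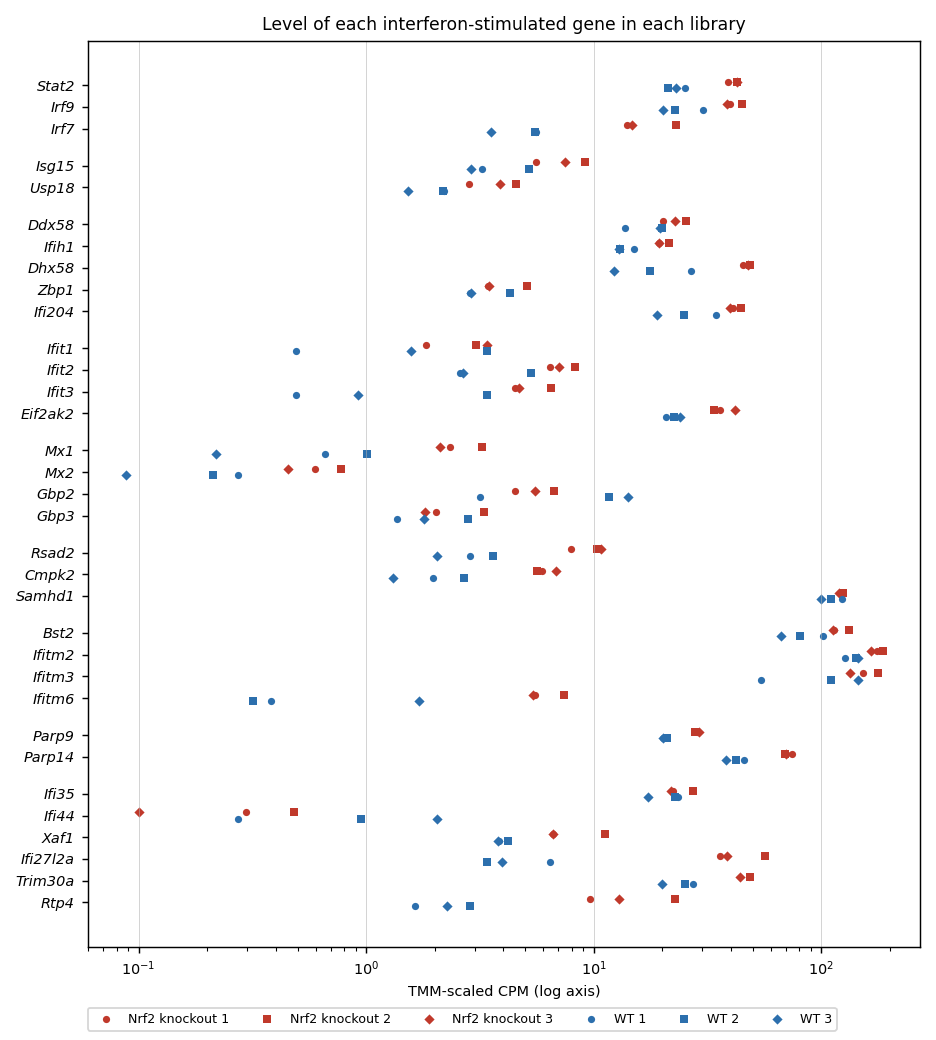
Level of each of the 33 interferon-stimulated genes in every library, as TMM-scaled CPM on a log axis, with knockout and WT libraries in separate colours. Knockout points lie above all WT points in 25 of the 33 genes, and Ifi27l2a shows the widest gap.

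RefSeq windows (GRCm38.p6) running from 250 bases before to 50 bases after the start of transcription were matched by symbol for 23 of the 33 genes. No window was matched for Usp18, Dhx58, Zbp1, Ifi204, Mx1, Mx2, Parp9, Parp14, Ifi27l2a and Rtp4. The ISRE core, GAAA followed by any 2 bases and GAAA, sought on both strands with overlapping matches counted, was present in 14 of the 23 members (60.9%) and in 3.99% of 27025 genes with such a window. The upstream 250 bases of Isg15 are shown because 3 overlapping cores, in capitals, lie in a single run, and those of Rsad2 because that gene was higher under every scaling tried. Each is the sequence 5′ to 3′ on the strand of the gene, with the ISRE cores in capitals.
Isg15 (chr4:156200819-156201068, minus strand): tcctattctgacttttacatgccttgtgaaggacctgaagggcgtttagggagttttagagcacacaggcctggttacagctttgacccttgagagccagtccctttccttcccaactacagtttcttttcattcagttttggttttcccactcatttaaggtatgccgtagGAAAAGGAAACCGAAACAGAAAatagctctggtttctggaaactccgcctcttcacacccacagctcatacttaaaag
Rsad2 (chr12:26456453-26456702, minus strand): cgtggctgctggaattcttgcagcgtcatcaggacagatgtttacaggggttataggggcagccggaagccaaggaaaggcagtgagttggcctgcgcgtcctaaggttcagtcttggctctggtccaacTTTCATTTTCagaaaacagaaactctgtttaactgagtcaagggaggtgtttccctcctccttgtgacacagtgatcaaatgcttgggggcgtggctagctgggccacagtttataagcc
For other members a stretch of 30 bases around the core is shown, read 5′ to 3′ on the strand of the gene, with the core in capitals.
Stat2 (chr10:128270266-128270295, plus strand): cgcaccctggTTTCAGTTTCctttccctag
Bst2 (chr8:71537580-71537609, minus strand): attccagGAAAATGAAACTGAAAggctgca
Ifit3 (chr19:34583363-34583392, plus strand): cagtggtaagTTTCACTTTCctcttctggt
Ifit3 (chr19:34583397-34583426, plus strand): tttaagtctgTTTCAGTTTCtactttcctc
Ifit1 (chr19:34640775-34640804, plus strand): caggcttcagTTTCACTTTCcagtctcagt
Ifitm2 (chr7:140955988-140956017, minus strand): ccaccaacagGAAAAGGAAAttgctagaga
Trim30a (chr7:104465210-104465239, minus strand): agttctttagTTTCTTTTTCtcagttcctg
Gbp2 (chr3:142620594-142620623, plus strand): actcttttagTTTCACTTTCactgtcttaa
Eif2ak2 (chr17:78882535-78882564, minus strand): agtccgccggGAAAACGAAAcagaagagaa
The core faced either way, reading as GAAA repeats in Isg15, Bst2, Ifitm2 and Eif2ak2, and as its reverse complement in Stat2, Rsad2, Ifit1, Ifit3, Trim30a and Gbp2. The core was present in 8 of the 14 members with a window that rose and in 6 of the 9 that did not pass or were not tested. Gbp2, the member with the negative fold change, has the core, while Irf7, Irf9, Cmpk2, Ifit2, Ifitm6 and Xaf1 rose and lack it in these windows.

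The antioxidant response element, to which NRF2 is known to bind, was sought as TGACNNNGC on both strands. It was present in 3 of the 23 members (13.0%), namely Irf7, Rsad2 and Ifi44, and in 14.0% of all genes with a window. The interferon-gamma element TTCNNNGAA was present in 7 of 23 members (30.4%) and in 9.55% of all genes. These are letter matches in a short window and describe no binding.

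**Figure D4:**
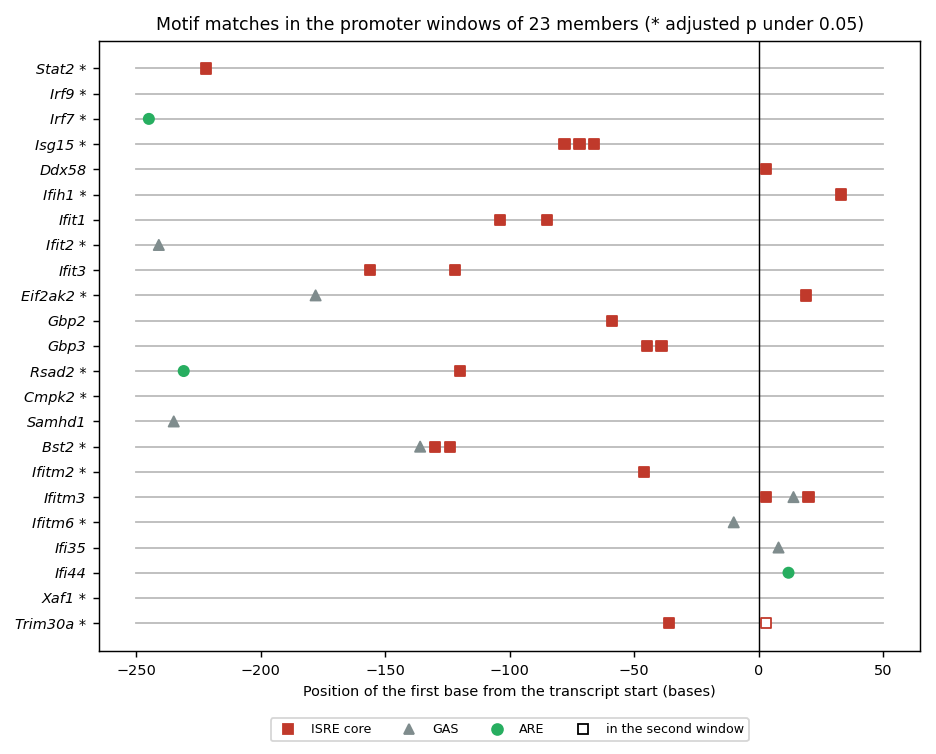
Positions of the ISRE, GAS and ARE letter matches in the promoter windows of the members with a RefSeq entry, in bases from the start of transcription. ISRE matches occur in 14 of the 23 members and ARE matches in 3.

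The 3 transcription factors rose together. Stat2, the ISGF3 subunit that carries its activation domain, lies on chromosome 10 from 128270559 to 128292849 on the plus strand (mm10, as are the other positions of genes). Its level was 39.1, 42.9 and 42.6 CPM in knockout libraries 1, 2 and 3, against 25.3, 21.3 and 23.1 CPM in WT libraries 1, 2 and 3. All 3 knockout libraries stood above all 3 WT libraries, and both groups were narrow. Its log2 change was 0.84 (SE 0.09, edgeR adjusted p = 0.0017). Irf9, the DNA-binding subunit of ISGF3, lies on chromosome 14 from 55603571 to 55610030. It had 39.98, 45.05 and 38.7 CPM in knockout libraries and 30.2, 22.7 and 20.1 CPM in WT libraries. The genotypes did not overlap, though WT library 1 came closest to the knockout libraries. Irf9 rose by 0.76 on the log2 scale (SE 0.16, edgeR adjusted p = 0.012), a call lost at an adjusted p of 0.051 without knockout library 2 or WT library 2.

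Irf7, the factor that amplifies type I interferon production, is a minus-strand gene on chromosome 7, from 141262706 to 141266481. It had 13.99, 22.99 and 14.8 CPM in knockout libraries and 5.59, 5.51 and 3.54 CPM in WT libraries. The groups were far apart, and knockout library 2 stood above the other knockout libraries. The fold change was 3.54 (log2 1.82, SE 0.26, edgeR adjusted p = 0.0032). Scaled to the macrophage markers without Lyz2, Irf7 was still higher by 1.38 on the log2 scale (edgeR adjusted p = 0.013), whereas the calls of Stat2 (0.35, edgeR adjusted p = 0.27) and Irf9 (0.32, edgeR adjusted p = 0.24) were lost. Phrf1, which overlaps Irf7 on the other strand, had a log2 fold change of -0.04 (edgeR adjusted p = 0.74). Rnf31, which overlaps Irf9 on the same strand, had 0.30 (edgeR adjusted p = 0.036). The sources used here do not state whether reads were counted by strand.

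The ubiquitin-like modifier ISG15 and its protease were both higher. Isg15, on chromosome 4 from 156199455 to 156200796, had 5.56, 9.15 and 7.47 CPM in knockout libraries and 3.23, 5.19 and 2.89 CPM in WT libraries. Knockout library 2 was the highest, and WT library 2 lay just under the lowest knockout library, so the groups were separate by a small margin. The log2 change was 0.97 (SE 0.29, edgeR adjusted p = 0.041). Usp18, which removes ISG15 from proteins and dampens interferon receptor signalling, lies on chromosome 6 from 121245906 to 121270917. It had 2.83, 4.55 and 3.86 CPM in knockout libraries and 2.19, 2.17 and 1.53 CPM in WT libraries. The knockout libraries stood above the WT libraries by a margin smaller than the spread among the knockout libraries. Its log2 change was 0.93 (SE 0.27, edgeR adjusted p = 0.035). Both had small counts. Isg15 lost its call when any knockout library or WT library 3 was left out (edgeR adjusted p from 0.051 to 0.13), and Usp18 in 4 of the 6 omissions (0.086 to 0.12).

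Of the 5 sensors of nucleic acid, 3 rose. Dhx58 encodes LGP2, a helicase that modulates RNA sensing by its relatives, and lies on chromosome 11 from 100694884 to 100704271. It had 45.5, 48.6 and 47.6 CPM in knockout libraries and 26.7, 17.7 and 12.3 CPM in WT libraries. The knockout libraries were tightly grouped and far above WT, whose own libraries differed by more than the knockout libraries did. Its fold change was 2.503 (log2 1.32, SE 0.25, edgeR adjusted p = 0.0086). Ifih1 encodes MDA5, which binds long double-stranded RNA, and lies on chromosome 2 from 62595798 to 62646255. It had 19.3, 21.4 and 19.3 CPM in knockout libraries, against 15.1, 13.0 and 12.9 CPM in WT libraries. The groups did not overlap, and the difference was smaller than that of Dhx58, with a log2 fold change of 0.55 (SE 0.11, edgeR adjusted p = 0.0089). The call of Ifih1 was lost when scaled to the macrophage markers (edgeR adjusted p = 0.061).

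Ifi204, a DNA sensor of the mouse Ifi200 family, lies on chromosome 1 from 173747293 to 173766943. It had 41.0, 44.5 and 39.7 CPM in knockout libraries and 34.7, 24.9 and 19.0 CPM in WT libraries. The groups were separate, with WT library 1 nearest to knockout. Its log2 change was 0.67 (SE 0.20, edgeR adjusted p = 0.043), and the call was lost in 4 of the 6 omissions of a library (0.10 to 0.13). Ddx58, which encodes the RNA sensor RIG-I, averaged 22.8 ± 2.66 CPM in knockout and 17.8 ± 3.57 CPM in WT (SD, n = 3 each). Knockout library 1 and WT library 2 both stood at 20.1 CPM, and the gene did not pass (log2 0.35, SE 0.17, edgeR adjusted p = 0.15). Zbp1, a sensor of Z-form nucleic acid, averaged 3.99 ± 0.947 CPM in knockout and 3.34 ± 0.822 CPM in WT (SD, n = 3 each). Its groups overlapped and it did not pass (log2 0.26, SE 0.26, edgeR adjusted p = 0.49).

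Of the 4 genes that block translation, 2 rose. Eif2ak2 encodes PKR, the kinase that halts translation on binding double-stranded RNA, and lies on chromosome 17 from 78852564 to 78882573. It had 35.8, 33.7 and 41.7 CPM in knockout libraries and 20.9, 22.6 and 24.0 CPM in WT libraries. All knockout libraries were above all WT libraries, and unlike most members its highest knockout library was library 3. The log2 change was 0.72 (SE 0.11, edgeR adjusted p = 0.0037), and the call was lost when scaled to the macrophage markers (0.083). The IFIT proteins bind viral RNA and initiation factors, and their genes lie in a cluster on chromosome 19. Ifit2, from 34550694 to 34576419, had 6.45, 8.32 and 7.07 CPM in knockout libraries and 2.57, 5.30 and 2.67 CPM in WT libraries. It rose by 1.05 on the log2 scale (SE 0.31, edgeR adjusted p = 0.038), with WT library 2 highest in its group, and lost the call in 4 of the 6 omissions (0.081 to 0.12).

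Ifit3, from 34583531 to 34588731, had 4.51, 6.49 and 4.72 CPM in knockout libraries and 0.493, 3.39 and 0.919 CPM in WT libraries. The groups did not overlap, but WT library 2 stood well above the other WT libraries. With a log2 fold change of 1.71 (SE 0.62) it did not pass (edgeR adjusted p = 0.076), and it passed without WT library 1 or WT library 2 (0.0087 to 0.024). Ifit1, from 34640871 to 34650009, had 37, 63 and 68 counts in knockout libraries and 9, 64 and 36 counts in WT libraries. WT library 2 lay at the level of the higher knockout libraries, so the groups overlapped and no difference was called (log2 0.60, SE 0.60, edgeR adjusted p = 0.48). All 3 Ifit genes were highest, among the WT libraries, in library 2. The sources used here do not state how reads shared with near-identical relatives were assigned, so values of the Ifit, Ifi200, Ifitm, Gbp and Trim30 families are uncertain to that extent.

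The interferon-inducible GTPases did not move as a group, with 1 of 3 tested higher. Mx1, a dynamin-like GTPase that blocks influenza virus, lies on chromosome 16 from 97447035 to 97462907. It had 47, 67 and 42 counts in knockout libraries and 12, 19 and 5 counts in WT libraries. Every knockout library stood well above every WT library, of which library 3 was lowest. The log2 change was 2.04 (SE 0.49, edgeR adjusted p = 0.02), and the call was lost when any knockout library was left out (0.056 to 0.082). Mx2, beside it from 97535308 to 97560900, had 12, 16 and 9 counts in knockout libraries and 5, 4 and 2 counts in WT libraries. The direction was that of Mx1, but the counts were too low for the test with all 6 libraries. Without WT library 1 Mx2 passed (log2 2.03, SE 0.65, edgeR adjusted p = 0.025). In the other 4 settings that tested it, among them the fit of all 6 libraries without a filter on low counts, it did not (1.30 to 1.85, edgeR adjusted p from 0.089 to 0.13).

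Gbp2, a guanylate-binding protein gene on chromosome 3 from 142620602 to 142638008, was the only tested member with a negative fold change. It had 4.51, 6.68 and 5.52 CPM in knockout libraries and 3.18, 11.7 and 14.2 CPM in WT libraries. WT libraries 2 and 3 stood above all knockout libraries and WT library 1 below them, so the groups overlapped. The log2 change was -0.80 (SE 0.50, edgeR adjusted p = 0.25). Without WT library 1 it was -1.21 (SE 0.18, edgeR adjusted p = 3.2e-04). WT library 1 also had the lowest stromal marker sum of the WT libraries, at 6436 CPM against 18659 and 27864 CPM, and the part of stromal RNA in Gbp2 was not tested. Gbp3 had 2.03, 3.29 and 1.81 CPM in knockout libraries and 1.37, 2.81 and 1.79 CPM in WT libraries. Its groups overlapped, and its log2 change was 0.26 (SE 0.36, edgeR adjusted p = 0.62).

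Among the enzymes that act on nucleotides, the pair Rsad2 and Cmpk2 rose and Samhd1 did not pass. Rsad2 encodes viperin, which makes a chain-terminating nucleotide from CTP, and is a minus-strand gene on chromosome 12, from 26442746 to 26456452. It had 7.94, 10.3 and 10.7 CPM in knockout libraries and 2.85, 3.60 and 2.06 CPM in WT libraries. All knockout libraries were far above all WT libraries, and the fold change was 3.41 (log2 1.77, SE 0.24, edgeR adjusted p = 0.0027). Cmpk2, a mitochondrial nucleotide kinase gene, lies 12.8 kb away on the plus strand, from 26469204 to 26479837. It had 5.90, 5.66 and 6.82 CPM in knockout libraries and 1.97, 2.70 and 1.31 CPM in WT libraries. The groups did not overlap, with a fold change of 3.08 (log2 1.62, SE 0.28, edgeR adjusted p = 0.0058).

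Samhd1, a dNTP hydrolase that starves viruses of nucleotides, lies on chromosome 2 from 157097533 to 157135265. It had 120.9, 124.7 and 120.3 CPM in knockout libraries and 123.6, 110.7 and 99.6 CPM in WT libraries. WT library 1 lay among the knockout libraries, so the groups overlapped. The log2 change was 0.13 (SE 0.09, edgeR adjusted p = 0.31).

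Of the 4 membrane restriction factors, 3 rose. Bst2 encodes tetherin, which holds budding virions on the cell surface, and lies on chromosome 8 from 71534255 to 71537456. It had 113.6, 133.3 and 112.5 CPM in knockout libraries and 102, 80.6 and 66.4 CPM in WT libraries. The groups were separate, with WT library 1 nearest to knockout, and the log2 change was 0.53 (SE 0.16, edgeR adjusted p = 0.043). The call was lost in 5 of the 6 omissions of a library (0.067 to 0.14). The IFITM proteins block fusion of virions with cell membranes, and their genes lie on chromosome 7. Ifitm2, from 140954837 to 140955987, had 175.7, 186.4 and 166.4 CPM in knockout libraries and 126.9, 142.2 and 145.6 CPM in WT libraries. Its groups were narrow and did not overlap, and the difference was the smallest among the called members (log2 0.35, SE 0.09, edgeR adjusted p = 0.021). Scaled to the macrophage markers without Lyz2, the value of Ifitm2 turned negative, at -0.17 (edgeR adjusted p = 0.60). Its call was also lost without knockout library 1, knockout library 2 or WT library 2 (edgeR adjusted p from 0.068 to 0.076), with library totals, with limma and when scaled to all macrophage markers.

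Ifitm3, from 141009586 to 141010770, had 153, 178 and 134 CPM in knockout libraries and 54.6, 111 and 145 CPM in WT libraries. The WT libraries ran in the order of their stromal marker sums, lowest in library 1 and highest in library 3, which overlapped the knockout libraries. No difference was called (log2 0.58, SE 0.32, edgeR adjusted p = 0.21), and the part of stromal RNA in Ifitm3 was not tested. Ifitm6, 4.93 kb from Ifitm3 on the same strand, lies from 141015699 to 141017924. It had 111, 153 and 108 counts in knockout libraries and 7, 6 and 39 counts in WT libraries. All knockout libraries stood far above WT, in which library 3 was highest, and the fold change was 7.33 (log2 2.87, SE 0.58, edgeR adjusted p = 0.01), a call lost in the scaling without Lyz2 (0.067). Camp, a neutrophil granule protein gene, had 296, 398 and 292 counts in knockout libraries and 24, 20 and 156 counts in WT libraries. Ngp, the neutrophil marker of smallest p, had 2123, 2051 and 1813 knockout counts and 264, 89 and 562 WT counts. The 8 neutrophil markers summed to 283, 326 and 286 CPM in knockout libraries and 42.2, 18.8 and 103 CPM in WT libraries. All 8 were tested and 7 of them were higher in knockout, against 14.1% of all tested genes. The other, Ly6g, had 15, 12 and 16 counts in knockout libraries and 1, 0 and 15 counts in WT libraries. Elane and Mpo, called higher, passed the read filter with 2 WT libraries over it, and Ly6g passed it with 1. The part of neutrophil RNA in Ifitm6 was not tested.

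Both genes of the ADP-ribosylation group rose. Parp14, an ADP-ribosyltransferase gene on chromosome 16 from 35832874 to 35871544, had 74.5, 69.2 and 70.1 CPM in knockout libraries and 46.0, 42.4 and 38.1 CPM in WT libraries. The groups were well apart, with a log2 fold change of 0.76 (SE 0.09, edgeR adjusted p = 0.0018). Parp9, which acts together with the ubiquitin ligase DTX3L, lies on the same chromosome from 35938470 to 35972605. It had 28.5, 27.9 and 29.1 CPM in knockout libraries and 20.2, 21.04 and 20.1 CPM in WT libraries. Within each genotype the libraries differed by little, and the log2 change was 0.48 (SE 0.08, edgeR adjusted p = 0.0043). Dtx3l, which overlaps Parp9 on the other strand, rose by 0.41 (edgeR adjusted p = 0.0081). The call of Parp9 was lost when scaled to the macrophage markers (edgeR adjusted p = 0.16), and without Lyz2 its value was -0.017 (0.96). Parp14 lost its call in the scaling without Lyz2 (0.29, edgeR adjusted p = 0.30).

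The remaining genes held the largest change among the members. Ifi27l2a, which encodes a small hydrophobic protein of the IFI27 family, lies on chromosome 12 from 103442167 to 103443680. It had 35.9, 56.7 and 38.6 CPM in knockout libraries and 6.46, 3.39 and 3.94 CPM in WT libraries. All knockout libraries were far above all WT libraries, and knockout library 2 was the highest. The fold change was 9.54 (log2 3.25, SE 0.29, edgeR adjusted p = 9.3e-04), and it was still 2.82 on the log2 scale when scaled to the macrophage markers without Lyz2 (edgeR adjusted p = 0.0015). Its relative Ifi27l2b went the other way, with 0, 1 and 0 counts in knockout libraries and 25, 44 and 152 counts in WT libraries.

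Rtp4, which encodes a receptor transporter protein known in mice to restrain the interferon response, lies on chromosome 16 from 23520291 to 23614222. It had 9.62, 22.8 and 12.9 CPM in knockout libraries and 1.64, 2.86 and 2.28 CPM in WT libraries. Knockout library 2 was highest and all knockout libraries were clear of WT. The fold change was 6.68 (log2 2.74, SE 0.37, edgeR adjusted p = 0.0026). Masp1, which overlaps it on the other strand, had 13, 27 and 15 counts in knockout libraries and 36, 254 and 760 counts in WT libraries, the opposite direction.

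Trim30a, a mouse TRIM protein gene on chromosome 7 from 104409025 to 104465193, had 48.1, 48.5 and 44.0 CPM in knockout libraries and 27.4, 25.1 and 20.1 CPM in WT libraries. The groups were far apart, with a log2 fold change of 0.96 (SE 0.13, edgeR adjusted p = 0.0024), and the call was lost in the scaling without Lyz2 (0.11). Xaf1, a gene for a pro-apoptotic protein that binds XIAP, averaged 8.13 ± 2.64 CPM in knockout and 3.94 ± 0.211 CPM in WT (SD, n = 3 each). It rose by 1.04 on the log2 scale (SE 0.24, edgeR adjusted p = 0.018), with knockout library 2 standing above the other knockout libraries. The call was lost without WT library 2 (edgeR adjusted p = 0.056) and in both scalings chosen after seeing the data (0.25 and 0.17). Ifi35 averaged 23.9 ± 3.1 CPM in knockout and 21.2 ± 3.39 CPM in WT (SD, n = 3 each), with overlapping groups and no call (log2 0.17, SE 0.15, edgeR adjusted p = 0.41). Ifi44 had 6, 10 and 2 counts in knockout libraries and 5, 18 and 47 counts in WT libraries, too few to test with all 6 libraries. Without WT library 1 it could be tested and was lower in knockout, by -2.34 on the log2 scale (SE 0.57, edgeR adjusted p = 0.0063), and its WT counts ran in the order of the stromal marker sums. In the other 4 settings that tested it, among them the fit of all 6 libraries without a filter on low counts, it did not pass (-2.43 to -1.48, edgeR adjusted p from 0.10 to 0.28). The part of stromal RNA in Ifi44 was not tested.

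The libraries of a genotype were not alike in these genes. Among the knockout libraries, 25 of the 31 tested members were highest in library 2, as were 36.9% of all tested genes. Library 1 was highest for 1 member and library 3 for 5 members. Among the WT libraries, 13 members were highest in library 1, 13 in library 2 and 5 in library 3, against 37.5%, 20.7% and 41.8% of all tested genes. WT library 3 was lowest for 17 of the 31 members and WT library 1 for 11, against 37.3% and 45.3% of all tested genes. Irf9, Irf7, Usp18, Ifih1, Dhx58, Ifi204, Bst2, Parp14 and Trim30a rose, and their WT levels fell from library 1 to library 3. The macrophage marker sums ran in that order, at 33555, 26905 and 23510 CPM. Eif2ak2 and Ifitm2 ran in the reverse order, and the other members that rose in neither. The part of macrophage RNA was not tested beyond the scalings to macrophage markers.

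**Figure D5:**
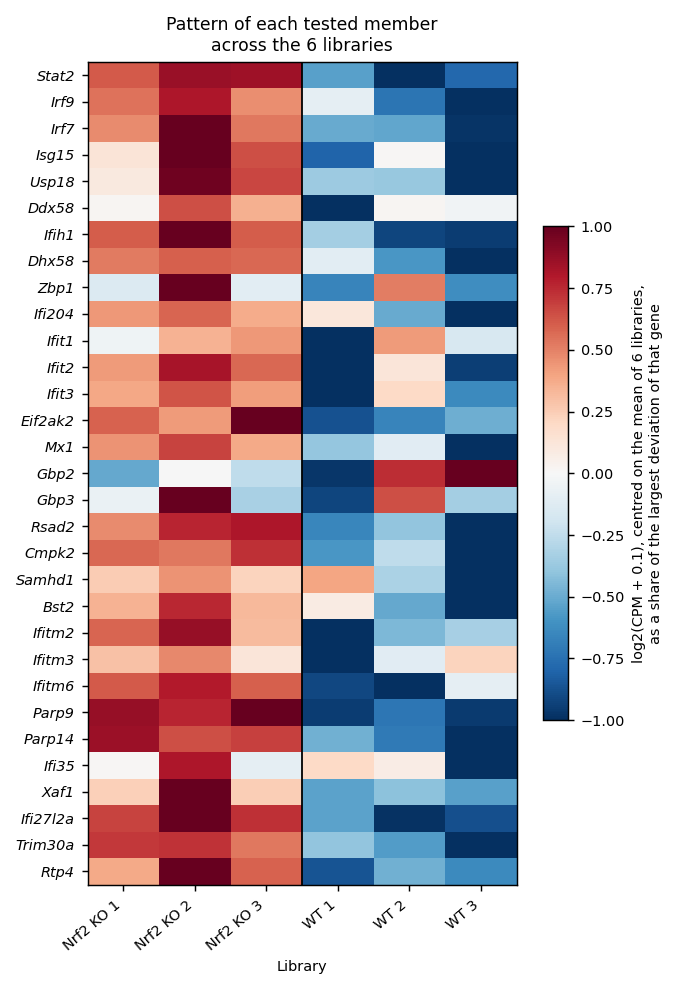
Deviation of the log2 level of each tested member from its mean over the 6 libraries, knockout libraries left of WT libraries. Each value is a share of the largest deviation of that gene, so sizes cannot be compared between genes. Knockout library 2 is the highest knockout library for 25 of the 31 members, while the WT libraries share the highest place as 13, 13 and 5.

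The rest of the interferon pathway was described from lists of 132 further genes, of which 131 were in the table and 94 could be tested. In these lists 43 of the 94 tested genes were higher and 9 lower in knockout, against 14.1% and 18.7% of all tested genes. None of the 21 interferon genes listed could be tested, and 19 of them had 0 counts in all 6 libraries. Ifng, the type II interferon gene, had 0, 0 and 0 counts in knockout libraries and 18, 20 and 0 counts in WT libraries. At this depth a count of 0 allows a level of up to between 0.141 and 0.163 CPM.

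Among 15 tested genes of the receptors and the JAK-STAT relay, 2 were higher and 3 lower. These counts lie near the shares over all tested genes, 14.1% higher and 18.7% lower. Tyk2, the kinase bound to IFNAR1, rose by 0.46 on the log2 scale (SE 0.10, edgeR adjusted p = 0.012). The receptor chains did not pass, with log2 fold changes of -0.03 for Ifnar1 (edgeR adjusted p = 0.85) and 0.12 for Ifnar2 (edgeR adjusted p = 0.50). Of the suppressors of cytokine signalling, Socs3 had 32, 45 and 50 counts in knockout libraries and 112, 286 and 453 counts in WT libraries, and fell by 2.71 on the log2 scale (SE 0.45, edgeR adjusted p = 0.0048). Socs1 had 25, 33 and 44 counts in knockout libraries and 68, 70 and 77 counts in WT libraries, and fell by 1.10 (SE 0.26, edgeR adjusted p = 0.018). Stat3 fell by 0.43 (edgeR adjusted p = 0.042). Of 6 other IRF genes tested, 0 passed by edgeR, and 1 had an unadjusted p under 0.05. That gene, Irf1, had a log2 change of -0.63 (SE 0.25, edgeR adjusted p = 0.092).

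Of 15 tested genes on the routes from nucleic acid sensors, 9 were higher and 1 lower, against 14.1% and 18.7% of all tested genes. Tlr7, the endosomal receptor for single-stranded RNA, rose by 0.95 (SE 0.13, edgeR adjusted p = 0.0028), and Cgas, the cytosolic DNA sensor, by 0.79 (SE 0.16, edgeR adjusted p = 0.011). Tank, an adaptor of the kinase TBK1, rose by 0.54 (edgeR adjusted p = 0.006). Mavs, the adaptor shared by RIG-I and MDA5, rose by 0.31 (edgeR adjusted p = 0.013), and Traf3, a ubiquitin ligase of these routes, fell by 0.57 (edgeR adjusted p = 0.028). All 3 genes that attach ISG15 to proteins rose, the activating enzyme gene Uba7 by 0.67 (edgeR adjusted p = 0.003), the conjugating enzyme gene Ube2l6 by 1.05 (edgeR adjusted p = 0.012) and the ligase gene Herc6 by 0.57 (edgeR adjusted p = 0.021).

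Of 70 other interferon-stimulated genes listed, 55 could be tested. Of these 29 were higher and 5 lower, against 14.1% and 18.7% of all tested genes. Gbp8, Slfn1 and Slfn4, called higher, had 0 WT libraries over the read filter. Ifi27l2b, Apol9a and Apol9b, called lower, had 0 knockout libraries over it. These genes passed the filter only through the genotype in which they were high. Slfn9, a Schlafen family gene, rose by 1.18 (SE 0.09, edgeR adjusted p = 5.8e-04), Ifi211, of the Ifi200 family, by 1.004 (edgeR adjusted p = 0.0018), and Rnf213, a large ubiquitin ligase gene, by 0.74 (edgeR adjusted p = 0.0018). Ly6e, which encodes a membrane protein that blocks coronavirus entry, had 826, 903 and 676 counts in knockout libraries and 1949, 2833 and 4064 counts in WT libraries. It fell by 1.87 on the log2 scale (SE 0.20, edgeR adjusted p = 0.0014). The other 4 lower genes were Isg20, Ifi27l2b, Apol9a and Apol9b. All 5 had their lowest WT count in library 1 and their highest in library 3, the order of the stromal marker sums. Socs3, Stat3, Traf3 and the uncalled Irf1 did too. Socs1 did so in counts but not in CPM, with 3.725, 3.709 and 3.37 CPM in WT libraries 1, 2 and 3. The part of stromal RNA in these genes was not tested.

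Markers of other cell types moved unevenly. Over all tested genes, the background for each list here, 14.1% were called higher and 18.7% lower. Of 18 macrophage markers tested, 5 were higher and 0 lower by edgeR, against 9 higher and 1 lower (Mertk) at an unadjusted p under 0.05. Their median log2 fold change was 0.46, against 0.76 for the interferon-stimulated genes. Of 10 proliferation genes tested, 9 were higher, against 14.1% of all tested genes. Of 4 endothelial markers tested, 2 were higher, Kdr by 2.49 on the log2 scale (edgeR adjusted p = 0.0011) and Vwf by 1.02 (edgeR adjusted p = 0.01). Pecam1 (log2 0.54, edgeR adjusted p = 0.087) and Cdh5 (log2 -0.72, edgeR adjusted p = 0.23) did not pass. Emcn, with 0, 2 and 0 knockout counts and 9, 7 and 7 WT counts, and Tek had too few reads to test. Of 2 conventional dendritic cell markers tested, Zbtb46 was lower, by -2.92 (edgeR adjusted p = 0.0059), and Itgax did not pass. Zbtb46 had 7, 3 and 6 counts in knockout libraries and 21, 36 and 69 counts in WT libraries. With 0 knockout libraries over the read filter, it passed that filter only through WT. Its WT counts ran in the order of the stromal marker sums, and the part of stromal RNA in Zbtb46 was not tested. The 1 lymphocyte marker tested, Cd79b, did not pass (edgeR adjusted p = 0.057). Of the plasmacytoid dendritic cell markers, the main interferon-producing cell type, Siglech and Klk1 had 0 counts in all 6 libraries, and of 4 others tested 1 was higher and 1 lower. The part of cell composition in the changes of the 33 genes was not tested beyond the scalings to macrophage markers given above.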

How the data were processed

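Messenger RNA was measured in 6 libraries, 3 of Nrf2 knockout and 3 of WT cells. The authors deposited 1 table with a raw read count per gene and library and an FPKM value beside each. The build mm10 and the tools HTSeq 0.6.1, HISAT2 2.0.1 and DESeq2 are listed, per the submitters' processing notes, without their roles, and the strand setting is not stated. The members and all gene lists were chosen with earlier results of these data known.

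Counts were tested in R 4.3.3 with edgeR 4.0.16, using filterByExpr (minimum count 10), TMM factors, a quasi-likelihood fit on genotype alone and Benjamini-Hochberg adjustment over all 13184 genes tested, calling genes at an adjusted p under 0.05. The same script was tested on simulated counts. CPM values are TMM-scaled, and the deposited FPKM values served for levels between genes. Library pairs within a genotype differed beyond counting noise: their chi-square over genes with 20 or more counts, divided by its degrees of freedom, lay between 3.24 and 162. The floors cover counting error only, whereas the SE values come from the edgeR fit and include spread between libraries. Every member is named, and full values are given for up to 3 tested genes per role group with the smallest p and for those against the general direction. Of each further list up to 4 tested genes with the smallest p are named. Stat3, Ifnar1, Ifnar2, Traf3, Irf1, Mertk, Camp, Ly6g and Emcn were named after their values were seen. So were Tek, Gbp8, Slfn1, Slfn4, Thy1, Dcn, Pdgfra, Elane, Mpo, the other lower genes and overlapping genes. Some genes of these lists are not reported here. Alternatives used DESeq2 1.42.0, limma 3.58.1, other scalings and filters, a stricter threshold, a replicate block and the omission of each library.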

Additional observations from a re-analysis of the deposited data

How the results depend on the processing

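Of the 538 recomputed values, 434 kept their direction and their side of the threshold. Relative to 22 members higher by edgeR, DESeq2 gave 23, relative log expression scaling 22, upper quartile scaling 20 and library totals 19, where the median over all genes was -0.056. Without a filter on low counts 23 were higher and that median was -0.075. Scaling to the macrophage list gave 1094 genes higher in all and a median of -0.10 over all genes. limma on log2(FPKM + 1) gave a member median of 0.60, 5 pathway genes lower and 1506 genes lower in all. A mean FPKM of at least 5 left 12 members higher, 21 pathway genes higher, 3 lower, and 982 higher and 1037 lower in all, among fewer genes tested. An adjusted p of 0.01 gave 12 members, 17 pathway genes higher, 5 lower, and 734 higher and 1389 lower in all.

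Scaling to the macrophage markers without Lyz2 gave 6 members and 5 pathway genes higher, 237 genes higher in all, and medians of 0.32 for members and -0.50 for all genes. Under it values turned to -0.19 for Ddx58, -0.24 for Zbp1, -0.27 for Gbp3, -0.34 for Samhd1, -0.17 for Ifitm2, -0.032 for Ifitm3, -0.017 for Parp9 and -0.29 for Ifi35. The geometric mean scaling gave 8 members and 9 pathway genes higher, 345 higher in all, and medians of 0.38 for members and -0.43 for all genes. It turned Ddx58 to -0.11, Zbp1 to -0.17, Gbp3 to -0.19, Samhd1 to -0.27, Ifitm2 to -0.089 and Ifi35 to -0.22. Both scalings were chosen after seeing the data, and the cause of these shifts was not tested.

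Leaving out 1 library at a time gave 14 to 25 members higher and 0 to 2 lower, 23 to 58 pathway genes higher and 5 to 13 lower, 875 to 3188 genes higher and 1616 to 3713 lower in all, member medians of 0.76 to 0.90 and all-gene medians of -0.017 to -0.0011. The log2 value of Gbp3 ran from -0.044 without knockout library 2 to 0.58 without WT library 2. With the replicate number as a replicate block, 23 members were higher, 44 pathway genes higher and 9 lower, and 1811 genes higher and 2363 lower in all. Deviations from the genotype means correlated at 0.154, 0.152 and 0.0951 between libraries of the same number. Between libraries of different numbers the correlations were lower, from -0.153 to 0.019. The labels do not state that the numbers pair the libraries, so the main fit did not pair them. Whether the numbers mark a pairing is unknown. The low counts of Mx2, Ifi44, Ifit1 and Mx1 limit what could be called for them.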
